A study of Arabidopsis thaliana with 48 samples.

Results

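Starch turnover in Arabidopsis thaliana was followed through 10 genes, chosen by their locus names: GBSS1, SEX1, the 6 beta-amylase genes BAM1 to BAM6, DPE1 and DPE2. All 10 were found among the 32548 loci of both deposited tables, and all 10 passed the filter on low values. RNA was sequenced from whole seedlings grown on MS (Murashige and Skoog) plates, in 48 libraries made of 2 per group. Seedlings in long days had 16 h of light and were 11 days old, and seedlings in short days had 8 h of light and were 14 days old in the first table. The labels of the second table, which holds short days alone, give no age of its own. The wild type was Col-0. The mutants were ino80, arp5, uch1/2 (uch1 and uch2 both lost), nfrkb1/2/3 (a triple mutant) and atx4/5;jmj24 (a triple mutant of atx4, atx5 and jmj24), all labelled homozygous. INO80 is the ATPase of a chromatin remodelling complex that moves and exchanges nucleosomes. A further 3 lines carried an INO80 transgene in the ino80 mutant. INO80-FL holds the full-length protein, INO80-(1-550) residues 1 to 550 and INO80-(335-1540) residues 335 to 1540. The promoter of the transgenes and the number of independent lines are not given in the sources used here. The first table holds all 9 genotypes in both day lengths (36 libraries), and the second table holds 6 genotypes (12 libraries), without arp5, INO80-(1-550) and INO80-(335-1540).

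Leaves store part of the carbon fixed in the day as starch in chloroplasts and break it down at night to maltose and glucose, which feed the plant until dawn. Granule-bound starch synthase builds amylose inside the growing granule, while breakdown starts with phosphorylation of the granule surface and goes on through beta-amylases, which release maltose, and disproportionating enzymes, which rework maltotriose in the plastid and maltose in the cytosol. Transcripts of several of these genes are known to cycle daily under the circadian clock, with GBSS1 high near dawn and SEX1, DPE1 and DPE2 high near dusk.

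The genes lie on all 5 chromosomes of the RefSeq TAIR10.1 assembly. GBSS1 (AT1G32900), the amylose synthase, spans 11920390 to 11923866 of chromosome 1 on the minus strand. SEX1 (AT1G10760), the glucan water dikinase that phosphorylates starch, spans 3580830 to 3590928 of chromosome 1 on the minus strand. BAM1 (AT3G23920) lies at 8641181 to 8644449 of chromosome 3, BAM2 (AT4G00490) at 222289 to 225131 of chromosome 4 and BAM4 (AT5G55700) at 22551734 to 22554964 of chromosome 5, all on the plus strand. BAM3 (AT4G17090) lies at 9604962 to 9607402 of chromosome 4, BAM5 (AT4G15210) at 8666334 to 8669526 of chromosome 4 and BAM6 (AT2G32290) at 13714516 to 13717002 of chromosome 2, all on the minus strand. DPE1 (AT5G64860), the plastid disproportionating enzyme, lies at 25925173 to 25928879 of chromosome 5 on the minus strand, and DPE2 (AT2G40840), the cytosolic transglucosidase that uses maltose, at 17044932 to 17051062 of chromosome 2 on the plus strand. No 50-base stretch of the annotated exons of any member occurred elsewhere in the genome, so the beta-amylase genes do not share identical reads of the stated read length. The strand setting of the read counting is not given in the sources used here, and 4 members overlap a gene on the other strand, BAM2 by 104 bases, BAM3 by 518 and 13, BAM4 by 87 and BAM6 by 693.

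Clock-related sequences near the starts of these genes are shown because the levels below move with clock genes. The window ran from 250 bases before to 50 bases after each annotated start, on both strands, and the letters came from RefSeq TAIR10.1. The evening element, AAAATATCT, was present in 2.82% of 27443 such windows, the CCA1-binding site, AAAAATCT or AACAATCT, in 9.93% and the G-box, CACGTG, in 7.68%. Among the members, SEX1 and DPE1 held an evening element, DPE2 held a CCA1-binding site in reverse orientation, BAM2 held 1 G-box and DPE1 held 2. The windows of GBSS1, BAM1, BAM3, BAM4, BAM5 and BAM6 held none of these letters. The sites with their neighbouring bases follow on the coding strand, with the motif in capitals. The SEX1 site is at chr1:3590924-3590932, the DPE1 site at chr5:25928859-25928867 and the DPE2 site at chr2:17044875-17044882.
SEX1 evening element: aagataaacaAAAATATCTtctgcaattcg
DPE1 evening element: caagagcaacAAAATATCTcgactgttttt
DPE2 CCA1-binding site: atggttgaaatAGATTTTTgagttgatcga

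The 250 bases before the start are given in full for GBSS1 at chr1:11923867-11924116, BAM3 at chr4:9607403-9607652, SEX1 at chr1:3590929-3591178 and DPE1 at chr5:25928880-25929129. All lie on the minus strand. In wild type in short days GBSS1 was higher in the first table, and SEX1 and DPE1 were higher in the second. BAM3 was high in both, with a ratio of the second to the first of 0.772. Capitals again mark motif letters, and the SEX1 element continues past the start, so that its first letters alone appear here. A match in these letters describes the sequence and was not tested for binding.
GBSS1 upstream: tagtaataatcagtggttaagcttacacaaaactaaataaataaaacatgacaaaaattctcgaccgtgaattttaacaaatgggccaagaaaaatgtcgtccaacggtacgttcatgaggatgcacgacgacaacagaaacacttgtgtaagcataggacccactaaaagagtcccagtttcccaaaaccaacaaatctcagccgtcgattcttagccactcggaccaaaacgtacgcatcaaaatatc
BAM3 upstream: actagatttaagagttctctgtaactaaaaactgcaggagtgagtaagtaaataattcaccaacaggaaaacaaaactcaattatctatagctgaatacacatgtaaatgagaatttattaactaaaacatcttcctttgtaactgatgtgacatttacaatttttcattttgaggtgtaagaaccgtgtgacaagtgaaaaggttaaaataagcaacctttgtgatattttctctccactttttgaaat
SEX1 upstream: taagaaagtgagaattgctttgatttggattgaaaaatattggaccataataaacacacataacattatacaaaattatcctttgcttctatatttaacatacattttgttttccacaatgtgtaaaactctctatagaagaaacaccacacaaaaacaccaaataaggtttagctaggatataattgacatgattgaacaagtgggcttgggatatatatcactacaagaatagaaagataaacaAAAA
DPE1 upstream: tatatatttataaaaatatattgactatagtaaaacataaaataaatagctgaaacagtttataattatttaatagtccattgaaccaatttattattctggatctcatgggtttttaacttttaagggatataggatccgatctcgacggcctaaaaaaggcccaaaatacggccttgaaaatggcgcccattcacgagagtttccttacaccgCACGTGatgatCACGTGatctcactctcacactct

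Values are normalized read counts, the read counts per gene that the authors adjusted for library size. Library totals were 18867187 to 22653356 in the first table and 20080952 to 22921363 in the second, and a value of 1 stands for about 1 read. The pairs of replicate libraries had r from 0.994 to 0.996 over genes, which are not independent of each other. INO80 read 861.7 ± 112 in ino80 against 1580 in wild type in long days (SD, n = 2), and 4785, 6429 and 12090 in INO80-FL, INO80-(1-550) and INO80-(335-1540). ARP5 read 5736 ± 122 in the libraries labelled arp5 against 313.5 ± 28.6 in wild type, against the label, so no statement on loss of ARP5 is drawn from them. The markers chosen for green tissue (6), root (7) and phloem (8) averaged 1 or more in every group. In whole seedlings, fewer cells of a type and less RNA per cell cannot be told apart. Nothing in the labels says that the 2 libraries of a group came from separate cultures, so p-values rest on the spread between replicate libraries. For each gene that spread is shared by all groups of a table, so the SE is the same in every line. It is not the spread of the groups compared. Leaving out a library leaves 1 in its group, and the spread then comes from groups that still have 2.

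In wild type, GBSS1, BAM1 and BAM3 were higher in short than in long days of the first table, and SEX1, DPE1, DPE2, BAM2 and BAM5 were lower. These 8 of 10 genes passed limma's test at an adjusted p under 0.05, here termed called. Over all genes tested 37.6% were called, 18.3% higher and 19.3% lower. All 8 remained called when each library was left out in turn and under every other setting. Age differed with day length, and the harvest hour is not given, so their effects and that of day length cannot be told apart. BAM3, the main beta-amylase of leaf starch breakdown at night, showed the largest rise, with 1230 and 1144 in the long-day libraries and 8009 and 8316 in the short-day ones. Both short-day libraries stood far above both long-day ones, a log2 change of 2.78 (SE 0.17, adjusted p = 1.3e-11). GBSS1 read 4042 and 4262 in long days and 16010 and 16950 in short days, a log2 change of 1.99 (SE 0.08, adjusted p = 5.2e-14). BAM1, a plastid beta-amylase best known from guard cells and stress, read 3365 and 3377 against 6784 and 7736, a log2 change of 1.1 (SE 0.18, adjusted p = 2.7e-05). Again no short-day library of either gene fell within the long-day range.

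The genes that were lower in short days included both disproportionating enzymes. DPE2 read 5050 and 5508 in long days against 1919 and 2062 in short days, a log2 change of -1.41 (SE 0.09, adjusted p = 1.6e-11). DPE1 read 691.6 and 736 against 308 and 324.6, a log2 change of -1.17 (SE 0.10, adjusted p = 4e-09). SEX1 read 4291 and 4359 against 2329 and 2808, a log2 change of -0.76 (SE 0.12, adjusted p = 2.9e-05). The day lengths did not overlap for any of these genes. BAM2, a plastid beta-amylase of low activity, fell by 0.49 (SE 0.08, adjusted p = 4.1e-05). BAM5, the beta-amylase of phloem that gives most of the extractable activity, was the most variable member, with 254.9 and 845.5 in long days and 9.5 and 21.2 in short days, a log2 change of -4.93 (SE 1.01, adjusted p = 0.00041). BAM4, a plastid beta-amylase without catalytic activity, read 341 and 369.5 in long days and 350.7 and 359.9 in short days. BAM6, whose role is less known, read 109.5 and 85.95 against 77.4 and 97.0. The ranges of BAM4 and BAM6 overlapped between day lengths, with adjusted p of 1 and 0.83.

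Per kilobase of annotated exon, the order of levels in wild type changed with day length. In long days GBSS1 led with 1812 ± 67.9 normalized reads per kilobase, followed by DPE2 with 1549 ± 95, BAM1 with 1338 ± 3.37, SEX1 with 858.1 ± 9.54, BAM2 with 595.3 ± 19.5, BAM3 with 564.4 ± 28.9, DPE1 with 353 ± 15.5, BAM5 with 208.3 ± 158, BAM4 with 176 ± 9.98 and BAM6 with 49.9 ± 8.51. The SD intervals of BAM2 and BAM3 overlapped, and so did those of BAM5 and each of its neighbours. In short days of the first table the first 3 were GBSS1 with 7190 ± 290, BAM3 with 3881 ± 103 and BAM1 with 2882 ± 267, and BAM5 came last with 5.81 ± 3.13. DPE2, at 583.9 ± 29.7, and SEX1, at 509.6 ± 67.2, had overlapping SD intervals there. SEX1 led the second table with 5752 ± 253, ahead of BAM3 with 2995 ± 231 and DPE2 with 2759 ± 114, whose SD overlapped, and GBSS1 came ninth of the 10 with 79.1 ± 13.5.

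**Figure D1:**
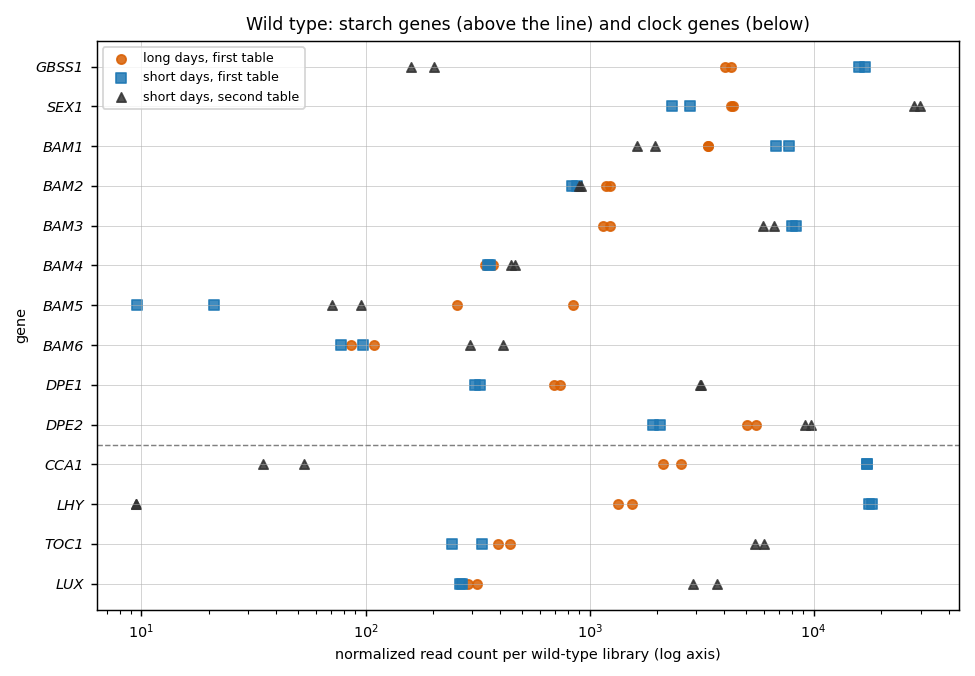
Normalized read counts in each wild-type library (log axis) of the 10 starch genes and, below the dashed line, of the clock genes CCA1, LHY, TOC1 and LUX, with colours and markers for day length and table. GBSS1 reads 159.4 and 203.1 in the second table against 16010 and 16950 in the first in short days, while SEX1 reads 29890 and 28090 against 2329 and 2808.

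In wild type most members differed more between the 2 tables, both in short days, than between the day lengths of the first table. These were GBSS1, SEX1, DPE1, DPE2, BAM1, BAM4 and BAM6, while BAM2, BAM3 and BAM5 differed more between the day lengths. The tables were normalized separately and share no library, so these ratios were not tested, and table, harvest and batch cannot be told apart. GBSS1 was 91.0 times higher in the first table than in the second, and BAM1 4.06 times higher. SEX1 was 11.3 times higher in the second table, DPE1 9.87 times, DPE2 4.73 times, BAM5 5.41 times and BAM6 4.04 times. BAM2, BAM3 and BAM4 differed less, with ratios of the second to the first table of 1.06, 0.772 and 1.28. The pattern was not limited to wild type. Over the 6 genotypes present in both tables, the ratio of the first to the second table was 40.2 to 91.0 for GBSS1 and 2.21 to 4.06 for BAM1. The ratio of the second to the first was 7.66 to 11.5 for SEX1, 5.23 to 9.87 for DPE1, 3.62 to 4.73 for DPE2 and 3.34 to 6.76 for BAM6. BAM5 had ratios of the second to the first table from 0.849 in ino80 to 5.41 in wild type, and BAM3 from 0.721 in INO80-FL to 1.5 in uch1/2, so these genes went in either direction.

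Clock genes differed between the tables as well. CCA1 and LHY, morning transcription factors of the clock, averaged 17260 and 18000 in wild type in the first short-day table and 44.1 and 9.46 in the second. TOC1 and PRR5, evening genes, averaged 286.8 and 63.9 in the first and 5744 and 3194 in the second. In long days CCA1 averaged 2342 and TOC1 417.3, and GBSS1, SEX1, DPE1 and DPE2 also lay between their values of both short-day tables. Other starch breakdown genes with the highest ratios of the second to the first table in wild type were the cytosolic phosphorylase gene PHS2 at 26.9, the debranching enzyme gene ISA3 at 13.6, the alpha-amylase gene AMY3 at 11.9, the dikinase gene PWD at 10.8 and the glucan phosphatase gene SEX4 at 10.6. BAM9, a beta-amylase gene outside the members, stood with GBSS1 at 34.1 times higher in the first table. Among 19 other starch synthesis genes, SS4 at 7.34 and SBE2.1 at 7.13 had the highest ratios of the second to the first, and SS2 was 2.45 times higher in the first. The part of the clock or of harvest in these differences was not tested.

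**Figure D2:**
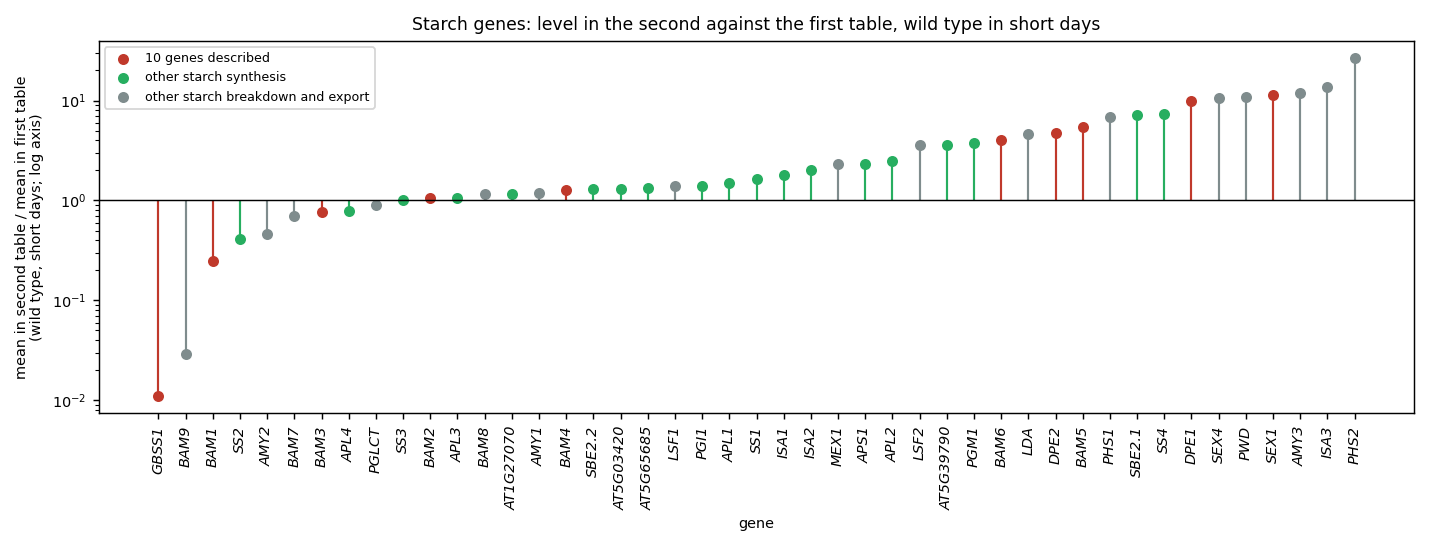
Ratio of the wild-type mean in the second table to that in the first, both in short days (log axis), for the 10 starch genes described and for 35 other genes of starch synthesis or breakdown, ordered by ratio. GBSS1 and BAM9 stand at the low end and PHS2, ISA3, AMY3 and SEX1 at the high end, and no test applies because the tables were normalized separately.

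Against wild type of the same day length, several mutants had lower BAM6, BAM3, GBSS1, BAM2 and BAM1 and higher BAM5 and DPE1 in the first table, and BAM6 was the member called lower in all 4 mutants of the second. In long days 42 of the 80 values of members in the 8 lines were called, 14 higher and 28 lower, which is 52.5% against 19.7% over all genes and lines (8.93% higher and 10.8% lower). Short days of the first table had 45 of 80 called, 13 higher and 32 lower, 56.2% against 25.9% (11.9% higher and 14.1% lower). The second table had 13 of 50 called, 1 higher and 12 lower, 26% against 12.2% (5.95% higher and 6.23% lower). No member was called in INO80-FL in any of these comparisons, where 0.121%, 0.129% and 0.0532% of all genes were. Rescaling to equal library totals moved the median of all genes by up to 0.18 on the log2 scale in the lines and changed the split of members to 23 higher and 27 lower in long days and 20 and 28 in short days of the first table, and to 1 and 9 in the second. A call is described below as held when it passed without each library of its comparison in turn. Of the long-day calls 23 held, and of those in short days 35 held in the first and 5 in the second table.

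By line, the members called in long days were 7 of 10 in ino80 (28.6% over all genes), 7 in INO80-(1-550) (24.8%) and 7 in INO80-(335-1540) (26.9%), 6 in nfrkb1/2/3 (25.5%), 6 in uch1/2 (28.5%), 5 in atx4/5;jmj24 (13.3%) and 4 in the libraries labelled arp5 (9.9%). The short-day counts in the first table were 9 in uch1/2 (38.7%), 8 in ino80 (35.1%), 7 in nfrkb1/2/3 (31.8%), 7 in INO80-(335-1540) (33.9%), 6 in atx4/5;jmj24 (27.2%), 4 in INO80-(1-550) (24.3%) and 4 in the libraries labelled arp5 (16.2%). Those of the second table were 7 in nfrkb1/2/3 (28.2%), 3 in uch1/2 (14.5%), 2 in ino80 (14%) and 1 in atx4/5;jmj24 (4.08%). In each of these lines the members' share exceeded the share of all genes, and this excess was not tested. With 10 members, 1 call is enough to exceed the 4.08% of atx4/5;jmj24. The share of all genes also takes in many genes with lower values than most members. The members' median log2 fold change in ino80 was -0.36 in long days, -0.27 in short days of the first table and -0.03 in the second, where the median of all genes was 0.00, 0.00 and -0.01.

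**Figure D3:**
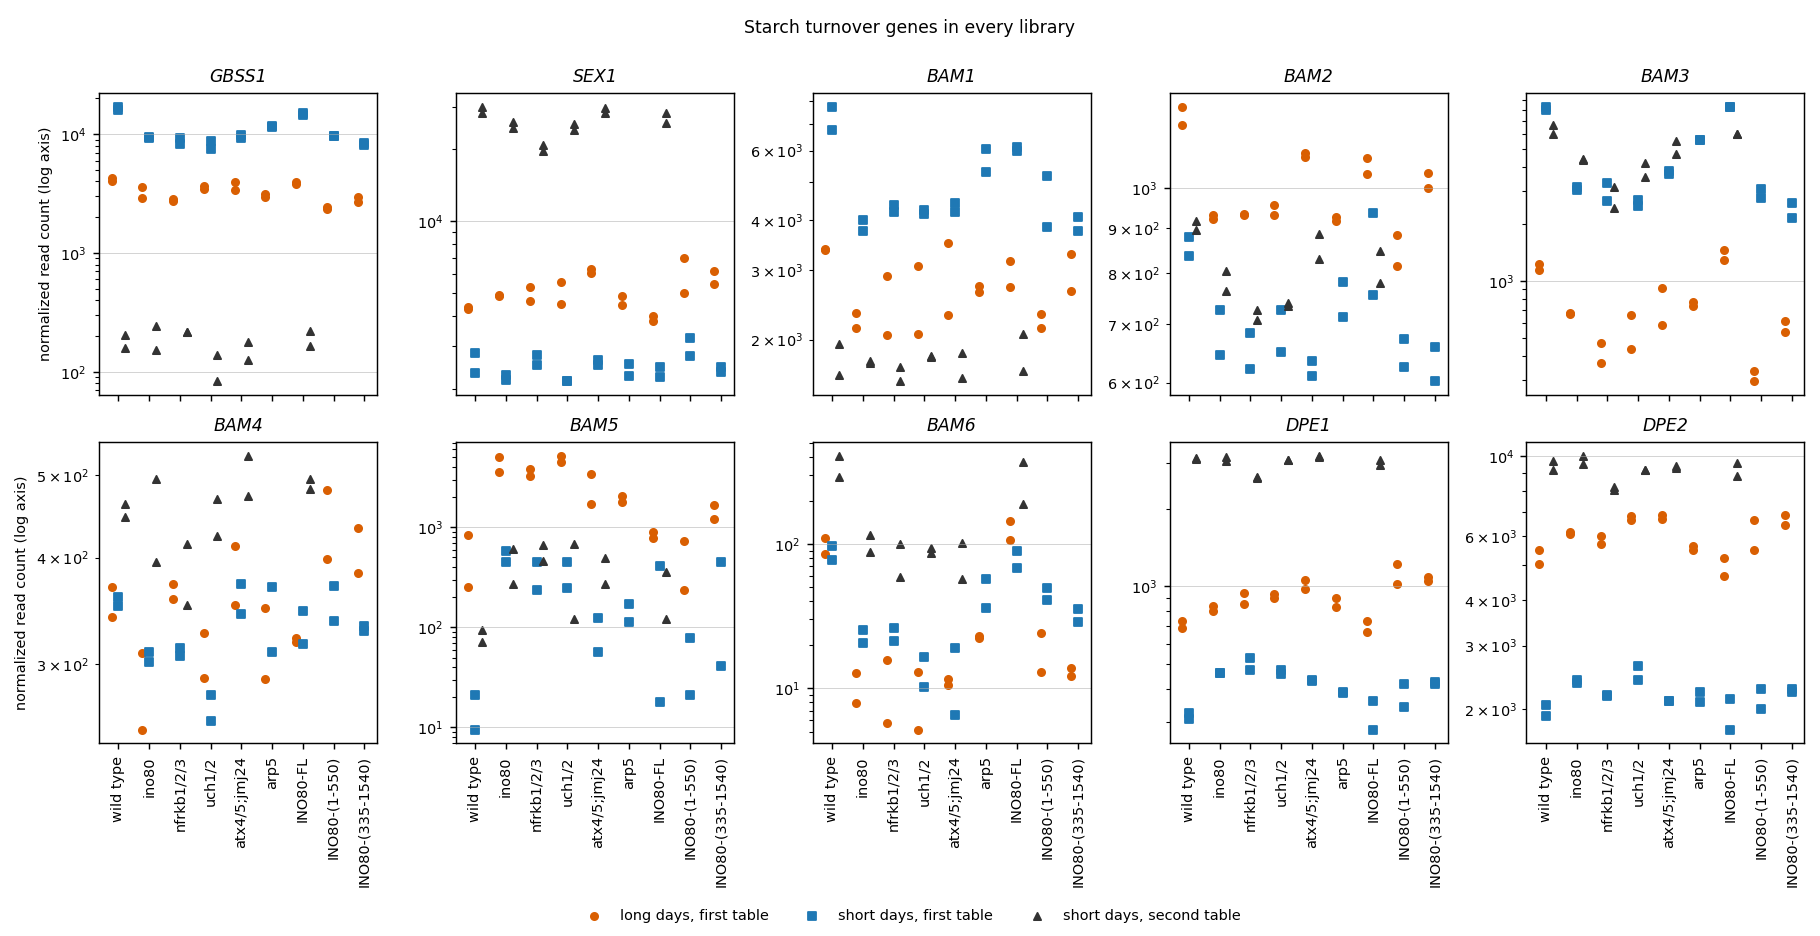
Normalized read counts of the 10 genes in each of the 48 libraries (log axes, with their own range in each panel), by genotype, with colours and markers for day length and table. BAM6 is lower than wild type in every mutant library of its own day length and table, BAM5 is variable within groups, and GBSS1, SEX1 and DPE1 separate mainly by table and day length.

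**Figure D4:**
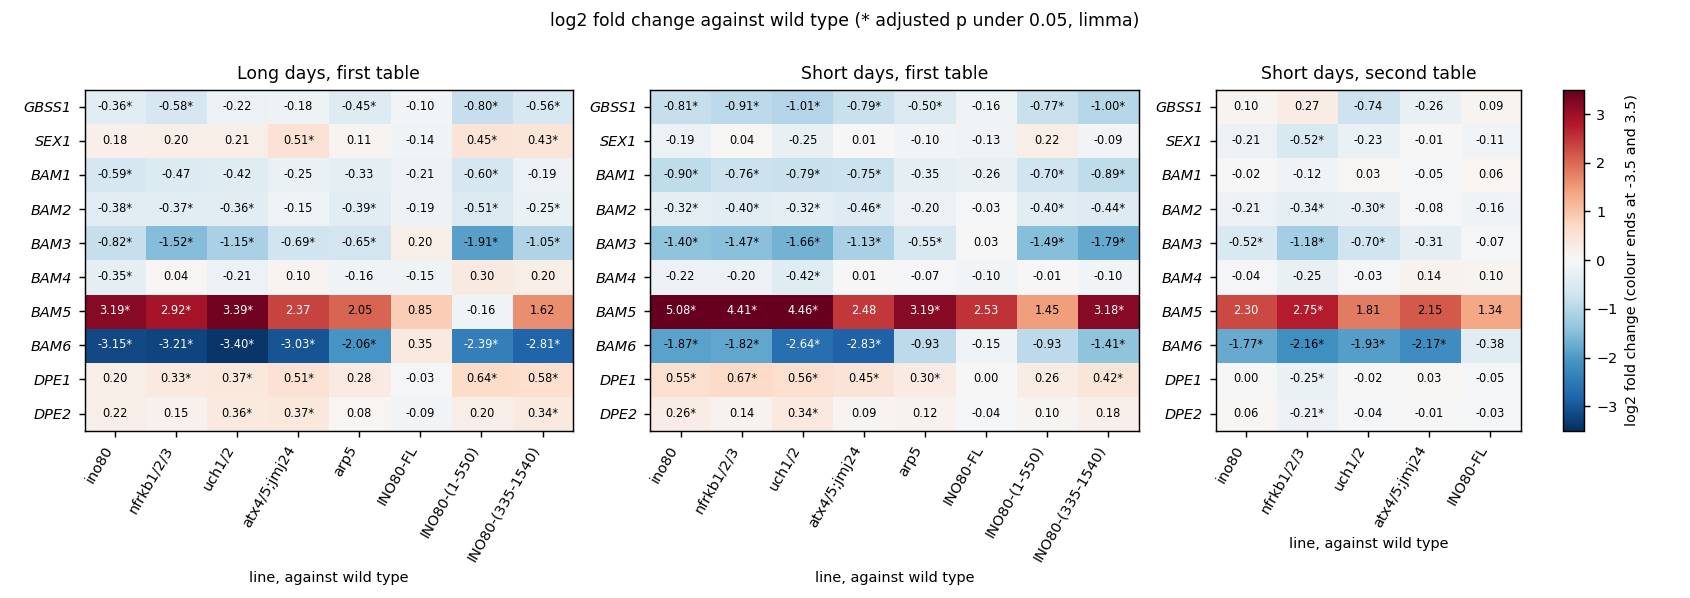
Log2 fold changes of the 10 genes in each line against wild type, in long days and short days of the first table and short days of the second, with asterisks at adjusted p under 0.05. The INO80-FL columns hold no asterisk, and BAM3 and BAM6 are negative in every mutant in all 3 panels.

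GBSS1 was lower in most lines of the first table and was called in no line of the second, though the difference between tables was not tested. In long days it read 4042 and 4262 in wild type, 2824 and 2735 in nfrkb1/2/3, 3113 and 2981 in the libraries labelled arp5, 2432 and 2325 in INO80-(1-550) and 2951 and 2683 in INO80-(335-1540). All these libraries lay below both wild-type libraries. Log2 fold changes of GBSS1 were -0.58 in nfrkb1/2/3 (adjusted p = 1.9e-05), -0.45 in the libraries labelled arp5 (0.0013), -0.80 in INO80-(1-550) (2.2e-07) and -0.56 in INO80-(335-1540) (2.9e-05), each with an SE of 0.08, and all 4 held. In ino80, with 2924 and 3570, the value was -0.36 (adjusted p = 0.0023), and -0.22 without the first ino80 library (adjusted p = 0.1). In atx4/5;jmj24 and uch1/2 it was -0.18 and -0.22 and not called (adjusted p = 0.17 and 0.059).

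GBSS1 fell in short days of the first table in all 7 lines other than INO80-FL, and every call held. Wild type read 16010 and 16950, and those lines ranged from 7541 in uch1/2 to 11700 in the libraries labelled arp5 with no overlap. The log2 fold changes ran from -1.01 in uch1/2 (adjusted p = 5.2e-09) and -1.0 in INO80-(335-1540) (5.9e-09) through -0.91 in nfrkb1/2/3, -0.81 in ino80, -0.79 in atx4/5;jmj24 and -0.77 in INO80-(1-550) to -0.50 in the libraries labelled arp5 (3e-04). The second table gave GBSS1 values of 159.4 and 203.1 in wild type, 241.7 and 153.9 in ino80, 216.4 and 218.6 in nfrkb1/2/3, 138.5 and 83.7 in uch1/2 and 179.5 and 125.9 in atx4/5;jmj24. No line was called there, with log2 fold changes of -0.74 to 0.27 and an SE of 0.29.

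SEX1 was called in few lines. In long days all libraries of INO80-FL lay below wild type and all libraries of the other lines above it, with 3 lines called. SEX1 read 4291 and 4359 in wild type there and 6053 and 6310 in atx4/5;jmj24, a log2 change of 0.51 (SE 0.12, adjusted p = 0.0058) that held. It also rose by 0.45 in INO80-(1-550) and 0.43 in INO80-(335-1540), but the former was 0.21 without the first INO80-(1-550) library (adjusted p = 0.27) and the latter 0.34 without the first INO80-(335-1540) library (0.12), and both ended without the first wild-type library (0.052 and 0.063). No line was called in short days of the first table, with log2 fold changes from -0.25 in uch1/2 to 0.22 in INO80-(1-550). Where SEX1 was highest, in the second table, it read 29890 and 28090 in wild type and 19500 and 20840 in nfrkb1/2/3. Both nfrkb1/2/3 libraries were below all other libraries of that table, a log2 change of -0.52 (SE 0.08, adjusted p = 0.001). That call held without each library but not with quantile normalization, which gave -0.12 (adjusted p = 0.17).

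BAM3 fell in the 7 lines other than INO80-FL in both day lengths of the first table. In long days wild type read 1230 and 1144, INO80-(1-550) 334.7 and 294.6, nfrkb1/2/3 466.7 and 366.8, uch1/2 435.3 and 656.5, INO80-(335-1540) 613.8 and 533, and ino80 673.9 and 669.8. No library of these lines came near the wild-type range. The log2 fold changes, each with an SE of 0.17, were -1.91 in INO80-(1-550) (adjusted p = 1.2e-08), -1.52 in nfrkb1/2/3 (5.2e-07), -1.15 in uch1/2 (1.7e-05), -1.05 in INO80-(335-1540) (5.2e-05) and -0.82 in ino80 (0.00064), and all held. The call of -0.69 in atx4/5;jmj24, with 919 and 584.5, ended without its second library (-0.37, adjusted p = 0.2) or the first wild-type one (0.067). The call of -0.65 in the libraries labelled arp5 ended without the first wild-type library (0.12), without either library labelled arp5 (0.11 and 0.059) and in a fit of long days alone (0.069).

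BAM3 in short days of the first table read 8009 and 8316 in wild type and 2161 to 3796 in the libraries of ino80, nfrkb1/2/3, uch1/2, atx4/5;jmj24, INO80-(1-550) and INO80-(335-1540), all far below wild type. The log2 fold changes were -1.79 in INO80-(335-1540) (adjusted p = 2.5e-08), -1.66 in uch1/2 (7.6e-08), -1.49 in INO80-(1-550), -1.47 in nfrkb1/2/3, -1.40 in ino80 (8.3e-07) and -1.13 in atx4/5;jmj24 (2.9e-05), and all 6 held. The libraries labelled arp5, at 5560 and 5589, lay between, with -0.55 (adjusted p = 0.027), and that call ended without any 1 of the 4 libraries compared (0.079 to 0.14), with equal library totals (0.07), with quantile normalization (0.14) and with no filter (0.058). Wild type in the second table read 5956 and 6642 and nfrkb1/2/3 2438 and 3143, a log2 change of -1.18 (SE 0.13, adjusted p = 0.00024) that held. In uch1/2 it was -0.70, with adjusted p = 0.056 without the third repeat of uch1/2. In ino80, with 4341 and 4415, it was -0.52 (adjusted p = 0.025), and the call ended without any 1 of the 4 libraries (0.059 to 0.13) or with no filter (0.083). In atx4/5;jmj24 it was -0.31 and not called (adjusted p = 0.25).

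BAM1 was called lower in 6 lines in short days of the first table and in 2 in long days, while the test of the difference between day lengths called none of the 8 lines (adjusted p from 0.07 to 1). Wild type in short days of the first table read 6784 and 7736, ino80 3763 and 4006, INO80-(335-1540) 4071 and 3761, uch1/2 4150 and 4252, nfrkb1/2/3 4378 and 4196 and atx4/5;jmj24 4205 and 4427. None of these reached the wild-type range. Their log2 fold changes were -0.90, -0.89, -0.79, -0.76 and -0.75 in that order (SE 0.18, adjusted p = 0.00034 to 0.0029), and all held. In INO80-(1-550) it was -0.70, and -0.48 without its first library (adjusted p = 0.13) or -0.60 without the second wild-type library (0.068). In long days BAM1 was called in ino80 at -0.59 and in INO80-(1-550) at -0.60, and neither held, with adjusted p of 0.061 to 0.092 without either wild-type or the first ino80 library and 0.067 to 0.1 without either wild-type or the second INO80-(1-550) library. None was called in the second table, where the lines had -0.12 to 0.06, with adjusted p from 0.48 to 0.95.

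BAM2 was lower by small amounts. In long days it read 1237 and 1181 in wild type and 884.8 and 813.7 in INO80-(1-550), 922 and 931.1 in ino80, 933.2 and 930.6 in nfrkb1/2/3 and 930.4 and 955.2 in uch1/2, with no overlap. These lines had log2 fold changes of -0.51, -0.38, -0.37 and -0.36 (SE 0.08, adjusted p = 5.6e-05 to 0.0019), and all held. The calls of -0.39 in the libraries labelled arp5 and -0.25 in INO80-(335-1540) ended without the first wild-type library, at adjusted p of 0.05 and 0.17, and the latter also without the second (0.059) or either of its own (0.065 and 0.16). For short days of the first table the calls of -0.46 in atx4/5;jmj24, -0.44 in INO80-(335-1540), -0.40 in INO80-(1-550) and -0.40 in nfrkb1/2/3 held. Those of -0.32 in ino80 and -0.32 in uch1/2 were -0.24 and -0.24 without the first ino80 or the second uch1/2 library (adjusted p = 0.078 and 0.075), and -0.15 and -0.12 with equal library totals (0.12 and 0.2). BAM2 in the second table was -0.34 in nfrkb1/2/3, which held but was -0.17 with equal totals (adjusted p = 0.068), and -0.30 in uch1/2, which ended without any 1 of the 4 libraries compared (0.06 to 0.077).

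BAM4 stayed within a narrow range in all 3 settings, from 250.9 to 480.1 in long days, 256.8 to 372.7 in short days of the first table and 351.9 to 527.6 in the second. It was called in ino80 in long days, with 250.9 and 308.5 against 341 and 369.5, a log2 change of -0.35 (SE 0.11, adjusted p = 0.024). That call ended without the first ino80 library (-0.20, 0.31), without the second wild-type library (0.15), with equal library totals (0.19) and in a fit of long days alone (0.065). It was also called in uch1/2 in short days of the first table at -0.42 (adjusted p = 0.0054), which was 0.058 without the second uch1/2 library and 0.11 with equal library totals. None was called in the second table, with adjusted p from 0.16 to 0.91 and an SE of 0.12.

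BAM5 had the largest positive values and the largest spread. In long days wild type read 254.9 and 845.5, ino80 3590 and 5050, uch1/2 5220 and 4542, nfrkb1/2/3 3246 and 3826, atx4/5;jmj24 3385 and 1701 and the libraries labelled arp5 2035 and 1812. All these libraries exceeded both wild-type libraries, which themselves differed by a larger factor than the pairs of these lines. Log2 fold changes called were 3.39 in uch1/2 (SE 1.01, adjusted p = 0.014), 3.19 in ino80 (0.02) and 2.92 in nfrkb1/2/3 (0.035). None of the 3 held. Without the first wild-type library they were 2.52, 2.33 and 2.06 (adjusted p = 0.16, 0.2 and 0.28), and they also ended without the first uch1/2 library (0.073), either ino80 library (0.055 and 0.11) and either nfrkb1/2/3 library (0.095 and 0.14). With no filter the nfrkb1/2/3 value had an adjusted p of 0.08. INO80-(1-550), with 237.5 and 723.4, overlapped wild type.

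BAM5 in short days of the first table was low in wild type, at 9.5 and 21.2, and read 452 and 585.5 in ino80, 250.1 and 447.9 in uch1/2 and 234.5 and 446.7 in nfrkb1/2/3. The groups did not overlap, and the log2 fold changes of 5.08 (adjusted p = 0.00037), 4.46 (0.0011) and 4.41 (0.0016) held. In INO80-(335-1540) the libraries read 41.1 and 455.3, and the call of 3.18 was 1.47 without the second (adjusted p = 0.37) and ended without the first wild-type library (0.12). The call of 3.19 in the libraries labelled arp5 ended without any 1 of the 4 libraries (0.075 to 0.18), with no filter (0.074), with quantile normalization (0.054) and in a fit of short days alone (0.063). INO80-FL read 17.8 and 412.2, so 1 of its libraries was at the wild-type level and the other at the ino80 level, and it was not called (2.53, adjusted p = 0.5). Wild type in the second table read 95.2 and 70.7 and nfrkb1/2/3 460.7 and 671.2, a log2 fold change of 2.75 (adjusted p = 0.024) that ended without any 1 of the 4 libraries (0.071 to 0.12) or with no filter (0.092). Of the 8 phloem markers, 1 was higher and 4 lower in ino80 in long days (28.6% of all genes called) and 1 higher and none lower in nfrkb1/2/3 (25.5%). Their summed level in long days was 9890 to 10200 in wild type, 8833 to 9113 in ino80, 9643 to 9996 in nfrkb1/2/3 and 8997 to 9933 in uch1/2. In short days of the first table it was 9398 to 9830, 8360 to 9230, 8882 to 9420 and 8895 to 9208 in that order. The second table had 9223 to 9458, 7518 to 7711, 6849 to 7564 and 7735 to 8239, and 9375 to 10010 in atx4/5;jmj24. The part of these markers in the BAM5 values was not tested.

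BAM6 was the member with the deepest fall, at low read counts. In long days wild type read 109.5 and 85.95, and the 7 lines other than INO80-FL ranged from 5.16 in uch1/2 to 24.0 in INO80-(1-550). No library of these lines reached a level near wild type. The log2 fold changes were -3.40 in uch1/2 (SE 0.44, adjusted p = 4.5e-06), -3.21 in nfrkb1/2/3 (9.3e-06), -3.15 in ino80 (1e-05), -3.03 in atx4/5;jmj24 (5e-05), -2.81 in INO80-(335-1540) (4.7e-05), -2.39 in INO80-(1-550) (0.00028) and -2.06 in the libraries labelled arp5 (0.0039). All held apart from that in the libraries labelled arp5, which was -1.89 without the first Col-0 library (adjusted p = 0.056). INO80-FL read 144.6 and 106.6, which overlapped wild type.

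BAM6 in short days of the first table read 77.4 and 97.0 in wild type, 19.1 and 6.54 in atx4/5;jmj24, 10.2 and 16.6 in uch1/2, 20.7 and 25.4 in ino80 and 21.4 and 26.3 in nfrkb1/2/3. These groups did not overlap with wild type, and the log2 fold changes of -2.83 (adjusted p = 5.2e-05), -2.64 (4.8e-05), -1.87 (0.0019) and -1.82 (0.0027) held. INO80-(335-1540) had -1.41, which ended without the second Col-0 library (adjusted p = 0.11) or its own first (0.094). INO80-(1-550) and the libraries labelled arp5 had -0.93 each and were not called (adjusted p = 0.14 and 0.17). In the second table, where wild type was higher at 411.3 and 293.1, nfrkb1/2/3 read 59.2 and 100.2, a log2 change of -2.16 (SE 0.38, adjusted p = 0.0026) that held. The other called lines did not overlap with wild type either, with 57.2 and 101.4 in atx4/5;jmj24, 115.9 and 88.4 in ino80 and 94.2 and 86.6 in uch1/2. Their log2 fold changes of -2.17, -1.77 and -1.93 ended without the third wild-type repeat (adjusted p = 0.099, 0.093 and 0.069). They also ended without the third repeat of atx4/5;jmj24 (0.12), either repeat of ino80 (0.052 and 0.099) and repeat 4 of uch1/2 (0.054), and with no filter in atx4/5;jmj24 (0.072) and ino80 (0.062). The gene on the other strand, AT2G32280, averaged 46.1 ± 4.43 in wild type and 63.5 ± 11.6 in ino80 in long days (SD, n = 2). The pair did not fall together in that comparison. In wild type AT2G32280 averaged 20.0 ± 6.97 in the first short-day table and 132.4 ± 9.33 in the second, where BAM6 was higher too. The second table had 145.4 ± 1.97 in ino80, 127.5 ± 26.5 in nfrkb1/2/3, 106.9 ± 11.3 in uch1/2 and 102.4 ± 15.8 in atx4/5;jmj24. The part of AT2G32280 in the BAM6 values was not tested.

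The disproportionating enzymes were higher in several lines in the first table. DPE1 read 691.6 and 736 in wild type in long days, 1221 and 1020 in INO80-(1-550), 1087 and 1052 in INO80-(335-1540) and 981.1 and 1059 in atx4/5;jmj24. These libraries were all above wild type, and the log2 fold changes of 0.64 (adjusted p = 4.1e-05), 0.58 (0.00014) and 0.51 (0.0012) held, each with an SE of 0.10. The calls of 0.37 in uch1/2 and 0.33 in nfrkb1/2/3 ended without the first wild-type library (0.076 and 0.12) or their own first (0.066 and 0.15). In short days of the first table wild type read 308 and 324.6, nfrkb1/2/3 530.5 and 475.2, uch1/2 473.4 and 460, ino80 461.9 and 464.1, atx4/5;jmj24 429.2 and 433.6 and INO80-(335-1540) 418.8 and 427.7. There was no overlap, and the log2 fold changes of 0.67, 0.56, 0.55, 0.45 and 0.42 (adjusted p = 2.4e-05 to 0.0024) held. The call of 0.30 in the libraries labelled arp5 ended without any 1 of the 4 libraries (adjusted p = 0.12 to 0.2), with no filter (0.075), quantile normalization (0.07) or a fit of short days alone (0.071).

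DPE1 went the other way in the second table in nfrkb1/2/3, with 2640 and 2625 against 3107 and 3135 in wild type, a log2 change of -0.25 (SE 0.05, adjusted p = 0.0047). That call held without each library but was -0.08 with equal library totals (adjusted p = 0.26) and -0.16 with quantile normalization (0.056). DPE2 read 5050 and 5508 in wild type in long days, 6723 and 6886 in atx4/5;jmj24, 6659 and 6835 in uch1/2 and 6893 and 6437 in INO80-(335-1540), all above wild type. Their log2 fold changes were 0.37, 0.36 and 0.34 (SE 0.09, adjusted p = 0.005, 0.0029 and 0.0048), and all ended without the first wild-type library (0.085, 0.052 and 0.074), the last also without its own first (0.059). DPE2 in short days of the first table was higher in uch1/2 by 0.34 (adjusted p = 0.0026), which held, and in ino80 by 0.26 (0.019), which ended without the first wild-type (0.14) or either ino80 library (0.064 and 0.089). DPE2 in the second table was at -0.21 in nfrkb1/2/3 (SE 0.06, adjusted p = 0.031), which ended without the third wild-type repeat (0.17), either nfrkb1/2/3 library (0.13 and 0.083), with equal library totals (-0.04, 0.64) and with quantile normalization (-0.05, 0.6).

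The transgenic lines were also compared with ino80, the background they were made in. BAM3 and BAM6 were higher in INO80-FL than in ino80 in the first table, and neither was called higher in the lines with a truncated form. In short days BAM6 in the truncated lines still lay above the 20.68 and 25.37 of ino80. It read 40.86 and 49.75 in INO80-(1-550) and 28.83 and 35.27 in INO80-(335-1540). In long days 11 of 30 member values were called, 7 higher and 4 lower, 36.7% against 25.7% over all genes (14% higher and 11.8% lower). The short-day count in the first table was 9 of 30, 6 higher and 3 lower, 30% against 15.4% (8.02% higher and 7.4% lower). By line, INO80-FL had 4 members called in long days (30.8% of all genes) and 7 in short days (27.2%), INO80-(1-550) 5 (25.6%) and 2 (12.6%), and INO80-(335-1540) 2 (20.8%) and none (6.46%). With equal library totals the splits were 5 and 7, and 5 and 5. Of these calls 5 held in long days and 3 in short days. In INO80-FL in long days BAM6 read 144.6 and 106.6 against 7.89 and 12.8 in ino80, and BAM3 read 1452 and 1283 against 673.9 and 669.8. Neither overlapped, with log2 fold changes of 3.5 (SE 0.44, adjusted p = 2.6e-06) and 1.02 (SE 0.17, adjusted p = 5.7e-05) that held. In short days BAM3 rose by 1.43 (adjusted p = 1e-06), GBSS1 rose by 0.66 (4e-06) and DPE1 fell by 0.55 (0.00027), and these held.

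Other values of INO80-FL against ino80 were called but did not hold. In short days BAM6 rose by 1.72, with adjusted p = 0.059 without the first INO80-FL library, and BAM1 by 0.64, which ended without the first INO80-FL (0.054) or the first ino80 library (0.065). BAM2 rose by 0.30 and was 0.14 without the second INO80-FL library (adjusted p = 0.27), 0.21 without the first ino80 library (0.15) and 0.15 with equal totals (0.15). DPE2 fell by 0.30 in short days and was -0.16 without the first INO80-FL library (0.27) and -0.29 without the second ino80 library (0.066). In long days DPE2 fell by 0.31, ending without the second INO80-FL (0.11) or second ino80 library (0.05). GBSS1 in long days rose by 0.27 and was 0.12 without the first ino80 library (0.39), 0.24 without the first INO80-FL library (0.12) and 0.14 with equal totals (0.19). Of the 10 members 1 was called in INO80-FL against ino80 in the second table, 10% against 10.9% over all genes (5.74% higher and 5.18% lower). It was BAM6 at 1.39 (adjusted p = 0.045), which was 0.91 without the third INO80-FL repeat (0.22) and ended without either ino80 library (0.11 and 0.21), with equal totals (0.055) and with no filter (0.14). BAM3 was at 0.45 there (adjusted p = 0.051).

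INO80-(1-550) was lower than ino80 in BAM3 and GBSS1 in long days, where INO80-FL was higher, though the GBSS1 call of INO80-FL did not hold. BAM3 read 334.7 and 294.6 against 673.9 and 669.8 in ino80, below both, a log2 fold change of -1.09 (adjusted p = 3.6e-05). GBSS1 read 2432 and 2325 against 2924 and 3570, a log2 fold change of -0.44 (adjusted p = 0.00044). BAM4 read 480.1 and 398.8 against 250.9 and 308.5, a log2 fold change of 0.65 (adjusted p = 0.00017). Each pair was separate and all 3 calls held. DPE1 was 0.44 higher, and 0.31 without the first INO80-(1-550) library (adjusted p = 0.077). BAM5 was lower by log2 values of -3.36 in long and -3.62 in short days, and neither held. In long days the call ended without the first INO80-(1-550) library (0.17) or the second ino80 library (0.096). In short days it ended without the first INO80-(1-550) library (0.22), either ino80 library (0.074 and 0.12) or with no filter (0.052). SEX1 in short days was 0.42 higher and ended without the second INO80-(1-550) library (0.23), either ino80 library (0.081 and 0.16) or with no filter (0.056).

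INO80-(335-1540) was called against ino80 in 2 members, both in long days. BAM4 read 383.4 and 433.6 against 250.9 and 308.5, a log2 fold change of 0.55 (adjusted p = 0.0016), with adjusted p = 0.052 without the first ino80 library. DPE1 read 1087 and 1052 against 839 and 805.3, a log2 fold change of 0.38 (adjusted p = 0.0099), which ended without the first INO80-(335-1540) library (0.075), the second ino80 library (0.07) or with equal totals (0.072). BAM6 was 0.34 in long days and 0.46 in short days (adjusted p = 0.65 and 0.61), and BAM3 -0.23 and -0.38 (0.36 and 0.18). A p above the threshold does not show that this line and ino80 were alike, and the SE of 0.44 for BAM6 leaves room for changes of that size.

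**Figure D5:**
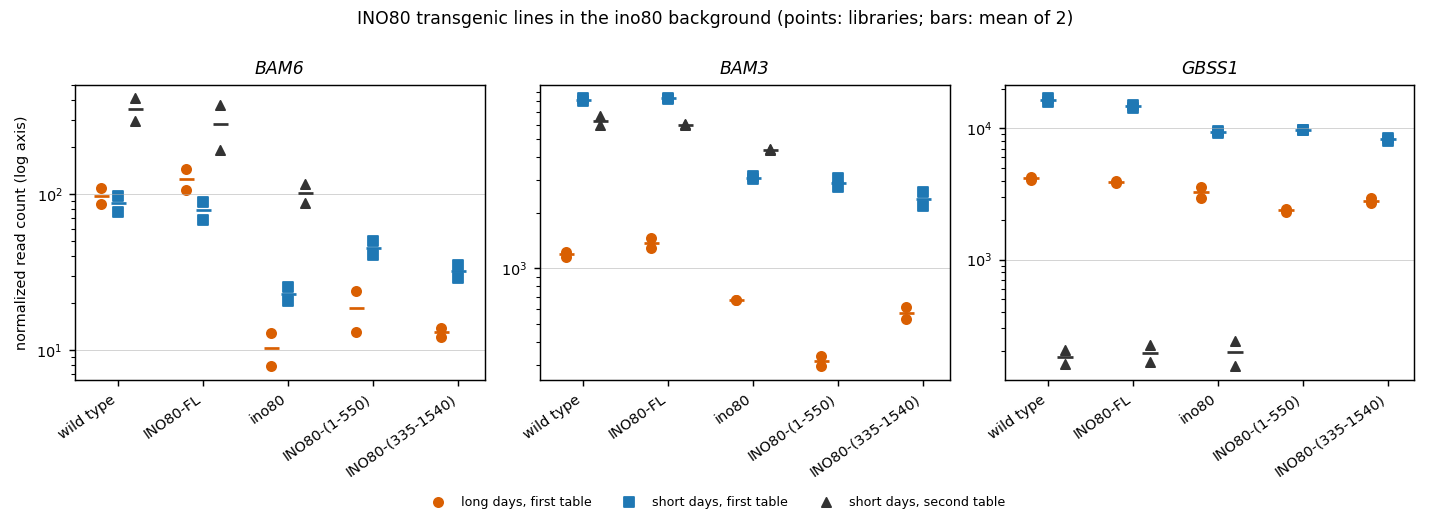
BAM6, BAM3 and GBSS1 in wild type, in ino80 and in the 3 lines that carry an INO80 transgene in ino80 (log axes), with points for libraries, short bars for the mean of 2, and colours and markers for day length and table. INO80-FL lies with wild type for BAM6 and BAM3 in both day lengths of the first table, while INO80-(1-550) and INO80-(335-1540) lie below it.

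Members were called for a difference of a line's effect between day lengths at about the share of all genes, and most of these calls were of GBSS1. Of 80 member values 5 were called for the difference of the short-day and the long-day effect, 6.25%, close to the 6.16% over all genes (2.7% higher and 3.45% lower), and all 5 were lower. For GBSS1 the difference was -0.80 in uch1/2 (SE 0.12, adjusted p = 0.00028) and -0.60 in atx4/5;jmj24 (0.0032), and both held. It was -0.45 in ino80 (adjusted p = 0.024) and -0.44 in INO80-(335-1540) (0.018), and it ended without single libraries of these lines or wild type, 5 in ino80 (adjusted p = 0.053 to 0.15) and 4 in INO80-(335-1540) (0.071 to 0.095). With quantile normalization these were -0.23 and -0.20 (adjusted p = 0.21 and 0.25), and with equal library totals the latter was -0.28 (0.084). For BAM3 in INO80-(335-1540) the difference was -0.74 (adjusted p = 0.043), which ended without 7 of the 8 libraries in turn (0.05 to 0.18), with equal library totals (0.081), no filter (0.089) and quantile normalization (0.13). GBSS1 in nfrkb1/2/3 was at -0.34 and not called (adjusted p = 0.11).

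Other genes of starch metabolism changed in the mutants in the first table. The list holds 19 other genes of synthesis and 16 of breakdown and export, counted over the 5 mutants, the libraries labelled arp5 among them. In ino80 in long days 4 synthesis genes were higher and 5 lower, with a median of -0.10, and 4 breakdown genes were higher and 3 lower, with a median of -0.02, where 28.6% of all genes were called. In short days of the first table these were 1 higher and 6 lower for synthesis, and 4 and 3 for breakdown, where 35.1% of all genes were called. AMY3 rose in all 5 mutants, by 0.29 to 0.48 in long days and 0.44 to 0.85 in short days, and ISA3 by 0.41 to 1.01 and 0.54 to 0.95. AT5G39790 rose in all 5 as well, by 0.77 to 1.02 and 0.48 to 0.89. BAM9 fell in 4 mutants in long days, at -0.58 to -0.39, and in all 5 in short days, at -2.69 to -0.63. SS2, a soluble starch synthase gene, fell in all 5 in both day lengths, at -0.54 to -0.27 and -0.55 to -0.34.

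In short days of the first table the pyrophosphorylase subunit gene APL1 (-0.39 to -0.23) and the phosphoglucomutase gene PGM1 (-0.46 to -0.28) fell in all 5 mutants. The branching enzyme gene SBE2.2, the synthase gene SS1, LSF1 and the glucose transporter gene PGLCT fell in 4 of 5 mutants there. LSF2 fell in 4 of 5 in long days. Adjusted p of the calls behind these counts reached 0.048 at most, and the counts were made under the authors' scaling alone. No other starch gene was called in the same direction in 4 of the 5 mutants, or in 4 mutants of the second table, where nfrkb1/2/3 had 9 synthesis genes lower and 1 higher and 8 breakdown genes lower and 1 higher, against 28.2% of all genes called.

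Clock genes and tissue markers moved in the same libraries. Of 7 morning clock genes, 4 to 6 were lower in each mutant in long days and none was higher. In the first short-day table, 5 or 6 were lower in each mutant except the libraries labelled arp5, where 1 was, and 1 was higher in nfrkb1/2/3. Just 1 or 2 were lower in the second table in each of the 4 mutants present. Their summed level in long days was 17870 to 18350 in wild type, 10410 to 11880 in ino80 and 9343 to 10510 in nfrkb1/2/3, and in the first short-day table it was 74030 to 76810 in wild type and 47230 to 49300 in ino80. CCA1 had log2 fold changes in ino80 of -0.84 in long days (adjusted p = 2.8e-05) and -0.97 in short days of the first table (3.5e-06), and of 0.27 in the second (0.52). Of 6 evening genes, 2 to 4 were higher in each mutant in long days and none was lower. In the first short-day table their sum was 2245 to 2275 in wild type and lower in ino80 (2161 to 2221), nfrkb1/2/3 and atx4/5;jmj24. It overlapped wild type in uch1/2 and was higher in the libraries labelled arp5 (2365 to 2391). The second table had 22340 to 22750 in wild type, 19290 to 20010 in ino80, 19740 to 19840 in uch1/2, 16750 to 17090 in nfrkb1/2/3 and 21190 to 22330 in atx4/5;jmj24.

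Of the 6 green tissue markers none was called higher, and those called lower were 1 in atx4/5;jmj24, 3 in the libraries labelled arp5 and 5 or 6 in ino80, nfrkb1/2/3 and uch1/2 in long days. Their sum there was 1090000 to 1109000 in wild type and 693700 to 723000 in ino80. In short days of the first table the green tissue sum was 794800 to 842400 in wild type. It was lower in all mutants there, from 509400 in nfrkb1/2/3 to 652400 in atx4/5;jmj24. In the second table the green tissue sum was 637200 to 641200 in wild type and lower in all mutants. It was 516800 to 547800 in ino80, 392900 to 435100 in nfrkb1/2/3, 514200 to 555500 in uch1/2 and 505500 to 534400 in atx4/5;jmj24. Of 7 root markers, 3 to 6 were higher and 1 was lower in each mutant in short days of the first table, with sums of 4201 to 4577 in wild type, 4296 to 4425 in ino80, 4203 to 4448 in nfrkb1/2/3 and 4290 to 4710 in the libraries labelled arp5, which overlapped, and of 4771 to 5549 in uch1/2 and 4661 to 5140 in atx4/5;jmj24, which lay above wild type. In long days the root sums were 3765 to 4059 in wild type, and nfrkb1/2/3 (4878 to 5097) and uch1/2 (4325 to 4640) lay above. Those of ino80, atx4/5;jmj24 and the libraries labelled arp5 overlapped wild type there. In the second table wild type had 2263 to 2594, below all mutants. These had 3075 to 3446 in ino80, 4286 to 4679 in nfrkb1/2/3, 3676 to 3791 in uch1/2 and 2977 to 3229 in atx4/5;jmj24. Of 5 dark and sugar starvation genes, 1 was higher and 1 lower in ino80 in long days, while all 5 were higher in INO80-(1-550). Their sum in long days was 24240 to 24380 in INO80-(1-550) and 7681 to 7909 in wild type. In the second table the sum of these starvation genes in wild type ran from 13010 to 29660 between the 2 libraries. The part of these lists in the starch gene values was not tested.

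The members' levels were also set against each other over the 9 genotypes within a day length. The correlations describe group means of 1 table, whose 2 day lengths form separate clusters, so they are given within each over 9 groups and without a test. GBSS1 and BAM3 had r = 0.86 in long and 0.97 in short days, and BAM1 and BAM2 0.91 in both. In short days BAM1 had r = 0.96 with GBSS1 and 0.94 with BAM3, and BAM2 0.92 with GBSS1, so these 4 genes ran alike there, while in long days the same pairs had 0.66, 0.74 and 0.81. DPE1 ran opposite to GBSS1, with r = -0.73 and -0.90. SEX1 and DPE1 had r = 0.95 in long days and -0.20 in short days.

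Among 20097 genes with a mean of at least 10, the closest to each member were found by r of group means. This r ran over all 18 groups of the first table, with both day lengths together. DPE2 was closest to PHS1 and SEX4, both at r = 0.996, which are themselves a starch phosphorylase and a starch phosphatase gene, with r of 0.91 and 0.92 within long days and 0.86 and 0.76 within short days. BAM3 was closest to AT1G64500 (0.992) and the clock gene LNK1 (0.991, with 0.96 within each day length). GBSS1 was closest to RUP2 (0.988) and PDCB4 (0.986), BAM1 to CPUORF47 (0.989) and ECT8 (0.986), and BAM2 to HST (0.967) and PUM4 (0.966). SEX1 was closest to AT3G01310 (0.986) and AT3G60380 (0.984), and DPE1 to BBX13 (0.983) and AT1G03740 (0.976). BAM5 was closest to AT3G06035 and AT2G32850 (both 0.960), BAM6 to AT4G15545 (0.944) and ABCB26 (0.940), and BAM4 to AT1G13190 (0.910) and AT2G32560 (0.884). All these values take in the difference between day lengths, which the 18 groups share, and for BAM4 and BAM6 wild type hardly differed between them (355.2 and 355.3, and 97.7 and 87.2 on average). Within a single day length these pairs had r from 0.664 (BAM4 and AT2G32560) to 0.989 (BAM3 and AT1G64500), both in short days.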

How the data were processed

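Single-ended 50-base reads of total RNA from seedlings were aligned with HISAT2 2.2.0 to TAIR10 and processed with edgeR, per the submitters' processing notes, which give no edgeR version. The authors deposited 2 tables of a gene-level signal, read counts adjusted for library size, normalized apart. The unit was read from the values, which are not whole, and in which 88.8% to 100% of low values in the first table and 93.4% to 100% in the second lay within 0.1 of a whole multiple of 1 read, so counts were not rebuilt and no count model was run. The counting tool, its annotation, strand setting and filters are not given in the sources used here. In each table, log2(value + 1) of genes with at least 1 in at least 2 libraries was fitted in R 4.3.3 with limma 3.58.1 and a mean-variance trend, 1 mean per group (25638 genes and 18 residual degrees of freedom, then 24458 and 6). Calls rest on p-values adjusted over all genes by Benjamini-Hochberg, with a threshold of 0.05. Fold changes on this scale understate changes of low genes. Reads per kilobase use the union of annotated exons of TAIR10.1. The 10 genes are all named, other starch genes where called the same way in at least 4 of 5 mutants, and the 2 most alike genes by Pearson's r. The members, lists and tests were chosen with earlier results of these data known. Alternatives were pseudocounts of 0.5 and 5, no filter or a minimum of 10, equal totals, quantile normalization, a replicate block, a fit of 1 day length and leaving out each library.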

Additional observations from a re-analysis of the deposited data

Results flagged for a closer look

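The effect of a line against wild type differed between short and long days of the first table, by the test of the difference itself, in 5 of 80 values, or 6.25% against 6.16% over all genes. These differences, short-day minus long-day effect on the log2 scale, were -0.737 for BAM3 in INO80-(335-1540), and for GBSS1 -0.438 in INO80-(335-1540), -0.604 in atx4/5;jmj24, -0.451 in ino80 and -0.796 in uch1/2. Those of GBSS1 in atx4/5;jmj24 and uch1/2 passed without each library in turn. The other 3 did not, and that of BAM3 ended without 7 of the 8 libraries. In long days GBSS1 was not called against wild type in atx4/5;jmj24 (-0.18, adjusted p = 0.17) and uch1/2 (-0.22, adjusted p = 0.059).

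In 5 of 50 values, or 10% against 6.8% over the 24251 genes tested in both tables, every library of a line lay on one side of wild type in short days of the first table and on the other side in the second, and the difference was not tested. The log2 fold change in the first and then the second table was 0.666 and -0.246 for DPE1 in nfrkb1/2/3, 0.136 and -0.209 for DPE2 in nfrkb1/2/3, -0.915 and 0.272 for GBSS1 in nfrkb1/2/3, 0.56 and -0.015 for DPE1 in uch1/2 and -0.102 and 0.103 for BAM4 in INO80-FL. DPE1 in nfrkb1/2/3 was called in both tables, in opposite directions, and its fall in the second table ended with equal library totals (-0.08, adjusted p = 0.26). That of DPE2 in nfrkb1/2/3 was -0.04 with equal totals (adjusted p = 0.64).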

How the results depend on the processing

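The 370 log2 fold changes of members were recomputed under 4610 combinations of value and alternative. Of these 4364 kept their side of the threshold, 169 called values were no longer called, 77 became called and none of the called values reversed. Another 173 values that were not called changed sign without becoming called. The number of member calls in lines against wild type in long days ranged from 25, without the first wild-type library, to 43 when 1 library was left out, against 42 with all, and in the second table from 6, without the third wild-type repeat, to 13. Calls of transgenic lines against ino80 in short days ranged from 5, without the first ino80 library, to 9. Calls of the day-length difference went from 5 to 3 with equal library totals and 2 with quantile normalization, and ranged from 2 to 7 when 1 library was left out. The single call of INO80-FL against ino80 in the second table went to 0 with equal totals or no filter, ranged from 0 to 1 with 1 library left out, and went to 2 with a minimum of 10 or quantile normalization. The cause was not tested.

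The labels do not say that a repeat number marks a shared day or batch. The correlation of same-numbered deviations between groups was -0.505 to 0.403 in long days (median 0.0271), -0.222 to 0.26 in short days of the first table (median 0.0404) and -0.257 to 0.519 in the second (median 0.334), and exceeded 0.1 in 10 of 36, 6 of 36 and 10 of 15 pairs of groups, so same-numbered libraries of the second table tended to deviate together, though not in every pair, and the numbers were not taken as pairing. With a replicate block the calls were 43 in long days, 46 in short days of the first table and 13 in the second against wild type, 12, 10 and 2 against ino80, 5 for the day-length difference and 8 for wild type. With about 1 read per unit, BAM6 in mutants and BAM5 in wild type in short days rest on few reads, which limits their precision.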
